A study of Mus musculus with 5 samples.

Results

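The 8 genes described here are cell-cycle regulators known as targets of the seed shared by miR-16 and miR-322 and, but for 1 base, by miR-503. They are the D-type cyclins Ccnd1, Ccnd2 and Ccnd3, their partner kinase Cdk6, the cyclin Ccne1, the phosphatase Cdc25a, and the kinases Wee1 and Chek1. They were chosen by name, not by a cut on their values, though earlier results of these data were known. All 8 were found by symbol among the 32285 genes of the count tables. Lungs taken whole from mice at E18.5, shortly before birth, were dissociated, red cells were lysed, and the other cells were profiled by droplet-based 3′ single-cell RNA sequencing. The study compared 2 embryos of genotype Zswim8+/- (Het1 and Het2) with 3 of genotype Zswim8-/- (KO1 to KO3). Every embryo gave 1 library. The Het embryos thus carried 1 mutant allele, no wild-type embryo was analysed here, and how the allele was made, the strain and the litters are not given in the sources used here. Zswim8 itself gave 2738 and 2731 unique molecular identifiers (UMIs, counted molecules) in the Het libraries, and 1886, 2313 and 3067 in the KO libraries. Counts at the 3′ end of a transcript do not check a deletion that may lie elsewhere, so they leave the genotype labels unchecked.

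MicroRNAs guide Argonaute proteins to messages that pair with their seed, bases 2 to 8, and lower the level and translation of these messages. ZSWIM8 is the adaptor of a Cullin-RING ubiquitin ligase that destroys Argonaute when a microRNA pairs with a trigger RNA, and miR-322 and miR-503 are among the microRNAs known to accumulate when it is lost. The 8 targets act at successive points of the cell cycle: D-type cyclins with CDK6 start the phosphorylation of the retinoblastoma protein in G1, cyclin E drives entry into S phase, CDC25A removes inhibitory phosphates from cyclin-dependent kinases, WEE1 adds them, and CHEK1 halts the cycle when DNA is damaged or replication stalls. Mature microRNAs were not counted in these libraries, so what follows is on the messages alone.

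The mature sequences are shown because their seeds define the 8 genes as a group. They are written 5′ to 3′ with bases 2 to 8 in capitals.
miR-16-5p: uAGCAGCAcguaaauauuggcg
miR-322-5p: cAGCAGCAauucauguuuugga
miR-503-5p: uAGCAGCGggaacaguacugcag
RefSeq (GRCm38.p6) places miR-322-5p at chrX:53054306-53054327 and miR-503-5p at chrX:53054027-53054049, both on the minus strand and in 1 cluster. Identical copies of miR-16-5p lie at chr3:69009918-69009939 on the plus strand and chr14:61631936-61631957 on the minus strand. The seed of miR-16-5p is also that of miR-322-5p, miR-15a-5p, miR-15b-5p, miR-195a-5p and miR-497a-5p, 6 microRNAs in all. Counted from the 5′ end, miR-503-5p differs from it by A8G.

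The matches in the messages were sought in the longest annotated 3′ untranslated region (UTR) of each gene (GENCODE M21, GRCm38), on the sense strand. The searched motifs were the 8-base match TGCTGCTA, the 7-base matches TGCTGCT and GCTGCTA, and the 6-base match GCTGCT, each counted once as the longest it belonged to. A match that pairs with base 8 of miR-503 reads CGCTGCTA and contains GCTGCTA. One match is printed below for Ccnd3, both CGCTGCTA matches for Ccnd1, and the 8-base match for each of the other 6 genes, with the match in capitals.
Ccnd1 first: tcctctcatggCGCTGCTAccgatgactcc
Ccnd1 second: cacgttgttttCGCTGCTAttggagggtca
Ccnd2: gtttcacggtgTGCTGCTAttttagaaaca
Ccnd3: gttgctttgctTGCTGCTtagcttctgtga
Cdk6: gttgcacagggTGCTGCTAtctcaaagaca
Ccne1: tattttgtaagTGCTGCTAtgtctatcaat
Cdc25a: cagaccagtatTGCTGCTActcaaagtcaa
Wee1: ccttgtgaattTGCTGCTAttttagtttcc
Chek1: ggtgaatagagTGCTGCTAtgtgacatttt
These windows lie in the 3′ UTRs of Ccnd1 at chr7:144930859-144930888 and chr7:144930782-144930811, Ccnd2 at chr6:127128530-127128559, and Ccnd3 at chr17:47599283-47599312. Those of Cdk6 and Ccne1 lie at chr5:3524534-3524563 and chr7:38098012-38098041. Those of Cdc25a, Wee1 and Chek1 lie at chr9:109892859-109892888, chr7:110142657-110142686 and chr9:36710279-36710308. Ccnd1, Ccnd2, Ccne1 and Chek1 are on the minus strand and the other 4 genes on the plus strand.

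All 8 genes held at least 1 match of 8 or 7 bases, 18 in all, and 6 of 8 held an 8-base match. Over 21021 genes the shares were 23.4% for 8 or 7 bases and 4.05% for 8 bases. The genes are named as targets partly for such matches, so this describes them and is no independent result. Ccnd1 and Ccnd3 were without the 8-base match, and Ccnd1 (2 matches) and Ccnd2 (1) were the only members with the base 8 pairing of miR-503. The UTRs ran from 531 bases in Ccne1 to 10217 in Cdk6. Among genes with a UTR of like length, the share with 8 or 7 bases ran from 10.9% for Ccne1 to 81.9% for Cdk6. The share with 8 bases ran from 1.22% for Ccne1 to 25% for Cdk6, so the shares over all genes are not matched for length. With the annotated UTR of median length per gene, 6 of 8 members held a match of 8 or 7 bases, and Ccnd2 (318 bases) and Cdk6 (1434 bases) had none.

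The 5 tables held 8722 to 13539 barcodes and 56608582 to 93708304 UMIs, and 3051 to 4634 cells per library were kept, at medians of 9710 to 12678 UMIs. Cells were clustered without genes that follow Mki67 and Top2a and given 1 of 4 lineages and, where marker genes allowed it, a class, written as "AT2-like" and so on. These names were rebuilt from markers and are not the study's own. Between 13.7% and 23% of the kept cells of a library had no class. At most 6 barcodes were shared by a pair of libraries. Xist and 4 Y-linked genes showed KO1 and KO2 to be female and Het1, Het2 and KO3 male, so sex and genotype are mixed. Each KO against Het call of a member that did not hold with sex as a term is given with that value. Calls of other genes are given without a value with sex as a term, so whether they held is not shown. In such a fit the genotype value rests on KO3 against Het1 and Het2, so a lost call cannot tell sex from the smaller number of libraries. The tests of the genotype effect across lineages, classes and cycling states, and the shares of cycling cells, were not fitted with sex. Free RNA was gauged in barcodes of red cells: 2.07% to 3.91% of these held a Ccnd3 UMI against 55.8% to 67.6% of kept cells, at far lower depth. Sums over all kept cells of a library cannot tell fewer cells of a type from less RNA per cell.

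Levels are in CPM, UMIs scaled to a fixed total per sum of cells, which rest on 3′ end capture and are compared here within a gene, not between genes. Across the 14 classes that had 20 cells or more from each embryo, Ccnd1, whose product pairs with CDK4 and CDK6, was highest in general capillary-like cells at 498 ± 64.5 CPM (mean ± SD, n = 5 libraries). The next class, dendritic cell-like, had 186 ± 49.7, and the ranges of these neighbours did not overlap. Ccnd1 was lowest in alveolar fibroblast-like and neutrophil-like cells, at 6.11 ± 2.83 and 6.11 ± 4.38. Ccnd2 had its highest level in secretory-like cells (469.7 ± 77.6), followed by ciliated-like cells (398 ± 44.3), and their ranges overlapped. At the other end were macrophage-like (14.9 ± 5.21) and neutrophil-like cells (13.5 ± 5.41). Ccnd3 was highest in mesothelial-like cells (283 ± 22.1) and lowest in macrophage-like cells (33.6 ± 4.43), each apart from its neighbour. Neutrophil-like cells, at the low end for Ccnd1 and Ccnd2, ranked near the top for Ccnd3 at 200.9 ± 15.5. The D-type cyclins did not share an order of classes: over 29 sums by class and cycling state, Ccnd1 and Ccnd2 correlated at r = -0.02, Ccnd1 and Ccnd3 at -0.38, and Ccnd2 and Ccnd3 at 0.16 on the log2(CPM + 1) scale.

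Cdk6, the kinase that these cyclins activate, was highest in mesothelial-like cells at 158 ± 18.0 CPM and lowest in neutrophil-like cells at 6.62 ± 2.23, both apart from their neighbours. Alveolar macrophage-like (107 ± 12.8), smooth muscle-like (104.5 ± 14.1) and macrophage-like cells (101 ± 15.4) followed with overlapping ranges. Ccne1 led in mesothelial-like (26.3 ± 5.69) and alveolar fibroblast-like cells (23.8 ± 6.71). Cdc25a stood highest in alveolar macrophage-like cells at 56.4 ± 6.74, apart from general capillary-like cells at 35.1 ± 5.13, which were apart from the rest. Wee1 ran from 24.7 ± 5.75 in mesothelial-like to 0.780 ± 0.732 in neutrophil-like cells, and Chek1 from 9.05 ± 3.57 in general capillary-like to 0.751 ± 1.21 in AT1-like cells. For both kinases, 13 of 13 neighbouring classes had overlapping ranges, so no single step in their order stood clear of the spread between libraries.

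**Figure D1:**
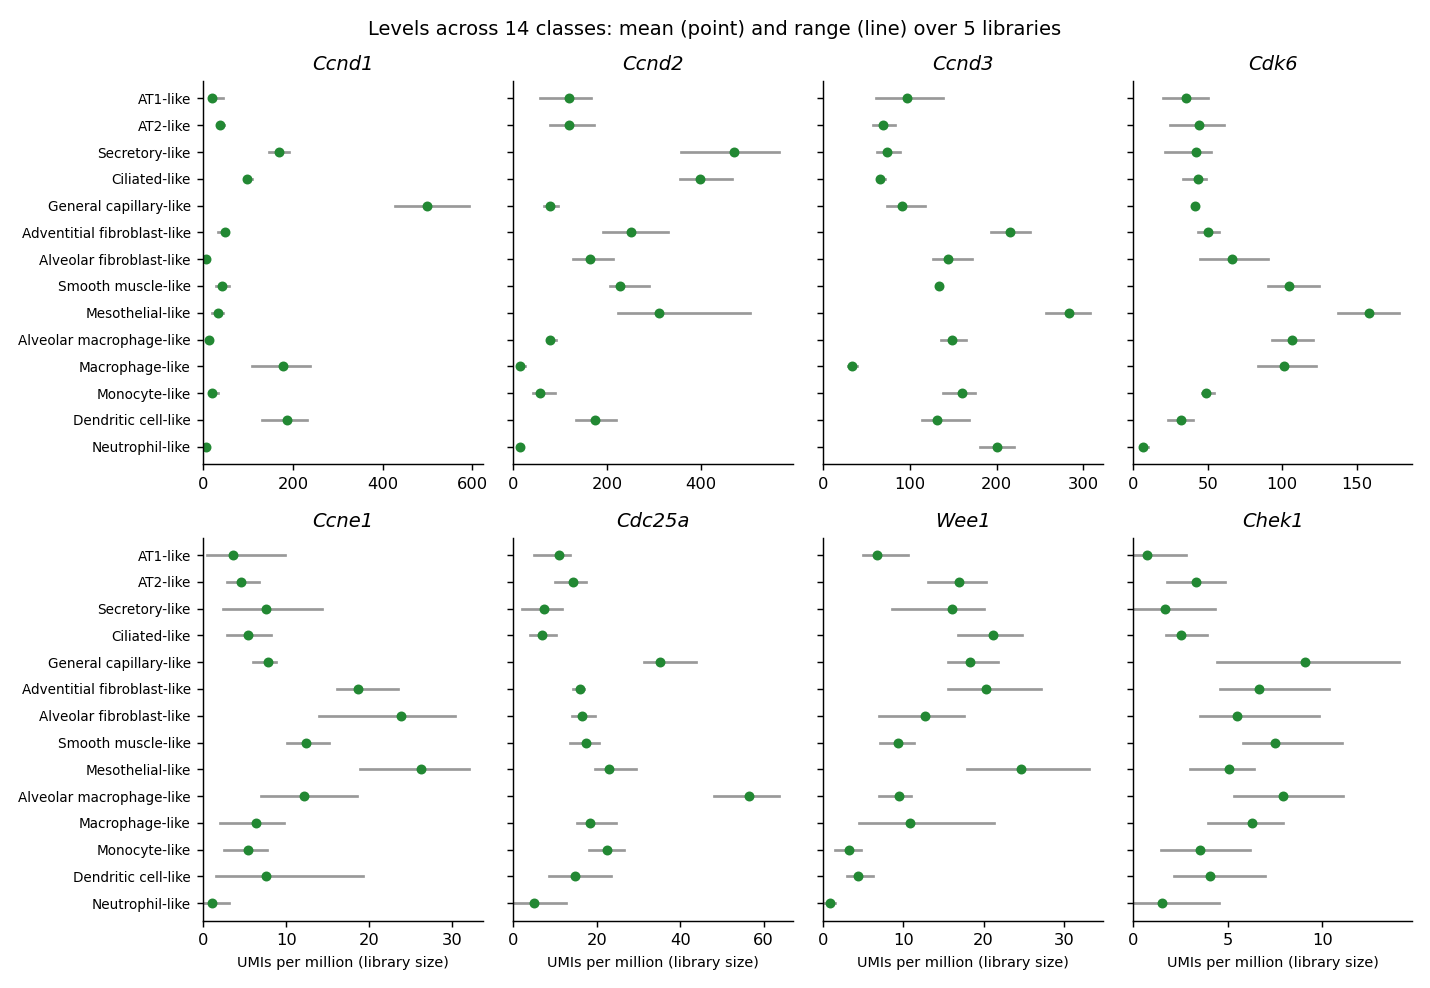
Levels of the 8 genes in 14 cell classes, in CPM of the class's library size (linear axis, scale differing by gene); points are means and lines the range over 5 libraries. Ccnd1 is far higher in general capillary-like cells (498) than in any other of the 14 classes, while Cdk6 and Ccnd3 peak in mesothelial-like cells (158 and 283). Aerocyte-like cells, too few in KO libraries for this comparison, are not shown.

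The genes most like each member over the same 29 sums (pooled over libraries, at least 50 cells each, genes of at least 10 CPM) were found by Pearson's r, which is a description of sums that share libraries. Chek1 was most like Cdkn2c (r = 0.90), Atad5 and Tk1, and Ccne1 most like Gpsm2 (0.86), Rad51b and Dtl. Cdc25a was most like Mapk1ip1l (0.91), Syncrip and Hnrnpu, and Wee1 most like Cdk5rap2 (0.86), Ska2 and Cep89. Cdk6 was most like Apex1 (0.82), Afg3l2 and Noc3l. Among the D-type cyclins, Ccnd3 was most like Svil (0.80), Inhba and Sra1, and Ccnd2 most like 2310039H08Rik (0.79), Itpr1 and Rpl41. Ccnd1 was most like LTO1 (0.75), Chst7 and Phf11d. LTO1 overlaps Ccnd1 on the opposite strand, and strand use in the authors' counting is not given in the sources used here, so their reads may not be told apart. Ccnd2, Ccnd3, Cdk6 and Wee1 also have an opposite-strand neighbour that overlaps them, and Ccne1 and Chek1 have none. Between members, the highest correlation was 0.74, for Ccne1 with Chek1.

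Cells with at least 1 UMI of both Mki67 and Top2a, genes expressed in dividing cells, were taken as cycling. The rule was applied without thinning, so deep cells met it more easily, and cycling and remaining cells are different mixtures of depths and cell types. Ciliated-like cells, which should not divide, gave 851306 to 2978110 UMIs per library to the cycling sums, whose totals were 10952025 to 22992154. Cycling and remaining cells of the same library were compared with edgeR's quasi-likelihood test with the library as a block, and a gene is called where its Benjamini-Hochberg adjusted p over all genes tested is under 0.05. Of the 8 members, 5 were higher and 1 lower in cycling cells. The background is high: 47.8% of all genes tested were called, 23.7% higher and 24.1% lower. Chek1 rose most, from 2.83 ± 0.872 CPM in remaining to 9.62 ± 1.45 in cycling cells (SD, n = 5), a difference of 1.81 ± 0.13 (SE) on the log2 scale, adjusted p = 3.86e-05. Wee1 rose by 1.25 ± 0.09, from 8.32 ± 1.06 to 19.8 ± 1.75 CPM, and Ccne1 by 1.14 ± 0.13, from 6.28 ± 1.63 to 13.6 ± 2.06. Cdc25a rose by 0.82 ± 0.07. Each of these 4 genes was higher in cycling cells in 5 of 5 libraries.

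The G1 genes behaved otherwise. Cdk6 had 69.4 ± 2.43 CPM in cycling and 71.2 ± 4.26 in remaining cells (log2 fold change -0.03, adjusted p = 0.524), and Ccnd2 had 143 ± 15.1 and 157 ± 23.7 (-0.13, adjusted p = 0.154). Neither was called, and each was higher in cycling cells in 2 of 5 libraries. Ccnd1 rose by 0.25 ± 0.04 and Ccnd3 changed by -0.22 ± 0.04 (adjusted p = 0.00152 and 0.00258). Both calls ended when cells holding markers of another lineage were left out (-0.15 and 0.01) or when cells were thinned to 3000 UMIs. Among the 41 other cell-cycle genes, 34 rose and 3 fell, with a median log2 fold change of 1.48 against 0.54 over the 8 members and -0.01 over all genes. The 8 other published targets of the family had 0 higher and 7 lower, with a median of -0.42.

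**Figure D2:**
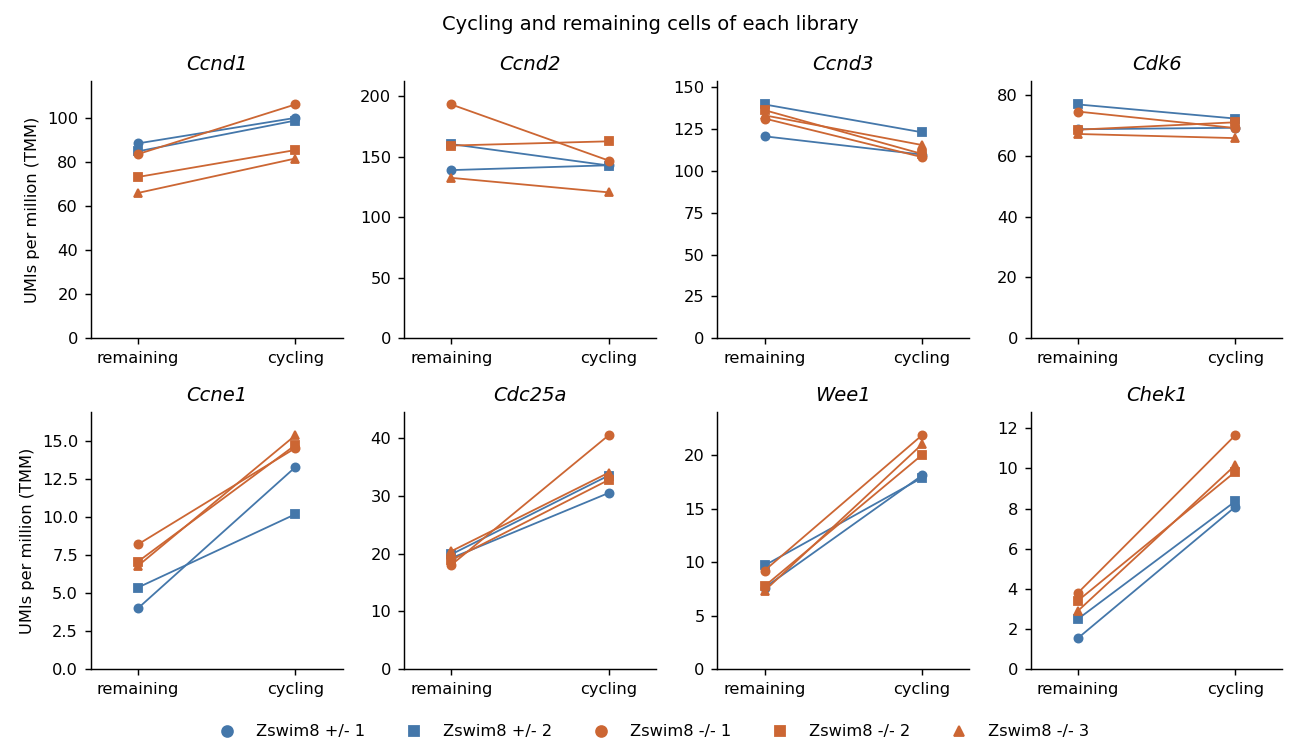
Levels of the 8 genes in remaining and cycling cells of each library, in TMM-scaled CPM (linear axes from 0); a line joins the values of 1 library. Ccne1, Cdc25a, Wee1 and Chek1 rise in all 5 libraries, while Cdk6 and Ccnd2 lines cross.

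Within immune cells, 4 members were higher and 1 lower in cycling cells, where 60.3% of genes were called, 29.6% higher and 30.7% lower. Ccne1 rose by 2.54 ± 0.15, Chek1 by 2.44 ± 0.15, Wee1 by 2.39 ± 0.13 and Cdc25a by 1.06 ± 0.07 on the log2 scale. Ccnd1 went the other way. It had 25.1, 19.7, 22.6, 25.9 and 22.4 CPM in the cycling immune cells of Het1, Het2, KO1, KO2 and KO3, and 34.1, 32.5, 75.9, 40.8 and 40.3 CPM in the remaining ones. The cycling value was lower in all 5 libraries (log2 fold change -0.85 ± 0.14, edgeR adjusted p = 0.000465). Immune classes differ widely in Ccnd1 and in their share of cycling cells, so this compares mixtures of classes.

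Values per library are given below in the order Het1, Het2 and KO1, KO2, KO3. KO and Het libraries were compared on sums over all kept cells, lineages and classes, with edgeR's quasi-likelihood test across all genes that passed a low-count filter, which all 8 members passed unless stated otherwise. Over all cells, 1 of 8 members was called, against 4.29% of all genes. Epithelial, endothelial and immune cells had 1 of 8 each, against 15.7%, 5.43% and 8.30%. Mesenchymal cells had 0 of 8 (background 0.0578%; 0 members at an unadjusted p under 0.05, and 0 by DESeq2). The median log2 fold change of the members was 0.06 over all cells, 0.17 in epithelial, 0.04 in endothelial, -0.07 in mesenchymal and 0.12 in immune cells, beside 0.01, -0.01, 0.00, 0.00 and 0.01 over all genes. With at most 1 call among 8 members in a lineage, the members' counts allow no comparison of the group with these shares, and the values below are those of single genes. Groups that do not overlap are common in these data: over all cells the KO and Het libraries lay apart for 46.4% of all genes tested and for 3 of the 8 members. In epithelial, endothelial, mesenchymal and immune cells the shares were 49.1%, 38.8%, 30.1% and 41.7%, with 4, 4, 0 and 5 of the 8 members.

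**Figure D3:**
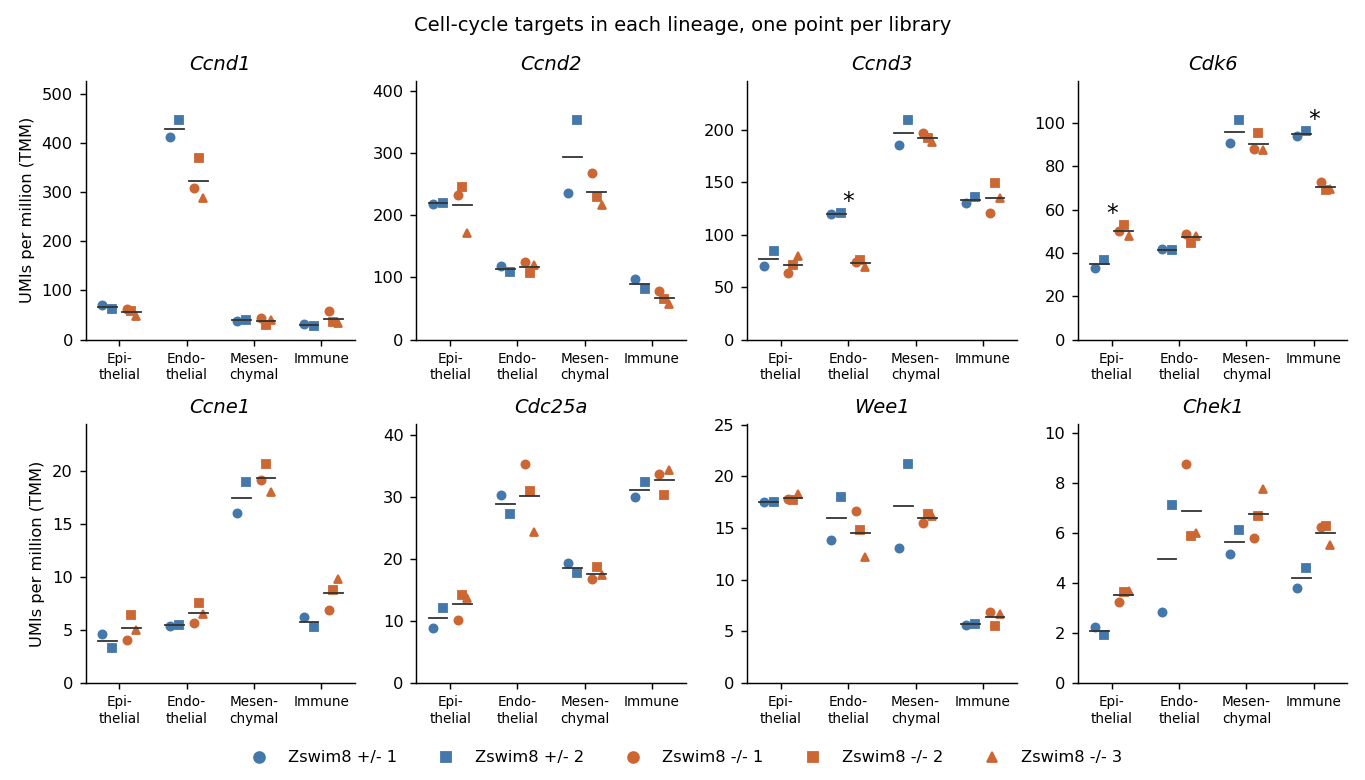
Levels of the 8 genes in epithelial, endothelial, mesenchymal and immune cells, in TMM-scaled CPM (linear axes from 0); blue is Zswim8+/-, orange is Zswim8-/-, 1 point per library, the line is the group mean, and a star marks an edgeR adjusted p under 0.05. Cdk6 is higher in the 3 KO libraries in epithelial cells and lower in immune cells, and Ccnd3 is lower in endothelial cells (69.0 to 75.5 against 119 and 120.5).

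Cdk6 moved in opposite directions in epithelial and immune cells. In immune cells it had 93.8 and 96.1 CPM in the Het libraries, and 72.6, 69.0 and 69.3 in the KO libraries. The 3 KO libraries lay below both Het libraries (log2 fold change -0.43 ± 0.05, SE; adjusted p = 0.00255). This call held under all 17 alternatives run for it, at log2 fold changes from -0.46 to -0.30 and adjusted p from 2.57e-07 to 0.0483. The makeup of the immune cells also differed: alveolar macrophage-like cells, where Cdk6 is high, were 681 of 2228 and 704 of 2165 immune cells in the Het libraries, and 223 of 1009, 358 of 1675 and 514 of 1886 in the KO libraries. The part of this difference in the immune value was not tested, and within that class Cdk6 was also lower, as given below. The unnamed immune cluster 12, led by Spp1, Atp6v0d2 and Inhba, held 181 and 195 cells in Het against 4, 20 and 34 in KO libraries, and its Cdk6 was high at 152.1 and 149.3 CPM in Het. With the cells of cluster 12 left out, an alternative chosen after seeing the data, immune Cdk6 was at -0.30 (adjusted p = 0.0207), still called but smaller. The 8 erythroid markers in the immune sums stood at 19540 and 14300 CPM in Het and 4553 to 11380 in KO libraries. In epithelial cells Cdk6 had 33.2 and 36.9 CPM in the Het and 49.9, 52.9 and 47.8 in the KO libraries, with every KO library above both Het libraries. The log2 fold change was 0.52 ± 0.11 (adjusted p = 0.0145). The epithelial call ended with sex as a term (0.44, adjusted p = 0.0988), without Het1 (0.148), without Het2 (0.0549), without mixed cells (0.0727), with a stricter cell filter (0.33, adjusted p = 0.356) and with coarser clusters (0.09, adjusted p = 0.858). AT1-like cells, the thin cells of the gas exchange surface, were 209 of 616 and 190 of 464 epithelial cells in Het against 48 of 283, 51 of 315 and 98 of 414 in KO libraries, and their Cdk6 stood at 25.03 and 20.33 against 41.7, 50.38 and 39.72 CPM. Without AT1-like cells, also chosen after seeing the data, epithelial Cdk6 was at 0.46 (adjusted p = 0.0231). In endothelial and mesenchymal cells Cdk6 was not called (0.18 and -0.09). The difference between lineages was itself tested: the genotype effect on Cdk6 varied across the 4 lineages at an adjusted p of 0.000157, in a fit with the library as a block.

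Epithelial sums also held more mesenchymal marker UMIs in KO libraries (145 to 222 CPM over 7 markers, all detected) than in Het libraries (43.6 and 47.4), and fewer haemoglobin and other erythroid UMIs (2734 to 4458 against 12340 and 6701). Their part in the epithelial Cdk6 result was not tested beyond leaving out mixed cells.

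Ccnd3 was lower in KO endothelial cells. It had 119 and 120.5 CPM in the Het libraries and 73.9, 75.5 and 69.0 in the KO libraries, so the groups lay well apart. The log2 fold change was -0.72 ± 0.09 (adjusted p = 0.00387), and -0.80 with sex as a term (adjusted p = 0.0372). Leaving out Het1 or Het2 kept the direction and ended the call at adjusted p of 0.0580 and 0.0539. In epithelial, mesenchymal and immune cells the values were -0.11, -0.04 and 0.02, none called, and the genotype effect on Ccnd3 varied across lineages (adjusted p = 0.00634). The 8 endothelial markers together were lower in the same KO endothelial sums (5815 to 6051 CPM) than in Het ones (8278 and 8364), and their part in the Ccnd3 value was not tested. The endothelial sums also compare different mixtures. Aerocyte-like cells, capillary cells of the gas exchange surface, were 112 of 432 and 75 of 304 endothelial cells in Het against 5 of 283, 4 of 300 and 10 of 295 in KO libraries, and Ccnd3 was high in them at 164 and 183.1 CPM in Het. Lymphatic-like cells, where Ccnd3 was low (39.14 to 61.6 CPM), were 10 and 5 in Het against 31, 20 and 29 in KO libraries. With both classes left out, chosen after seeing the data, endothelial Ccnd3 was at -0.57 (adjusted p = 0.0285). In barcodes of red cells, Ccnd3 stood at 49.98 to 78.99 CPM of the UMIs other than haemoglobin, near the KO endothelial level.

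Ccnd1 in endothelial cells had 412 and 446 CPM in Het and 309, 369 and 288 in KO libraries. The groups did not overlap, yet the change of -0.42 ± 0.11 was not called by edgeR (adjusted p = 0.0787), though it was by DESeq2. Aerocyte-like cells had 621.5 and 749.1 CPM of Ccnd1 in Het libraries, and without the aerocyte-like and lymphatic-like cells endothelial Ccnd1 was at -0.23 (adjusted p = 0.408). Its variation across lineages was not called either (0.0621). Ccnd2 was called in no lineage. In immune cells it had 96.6 and 80.5 CPM in Het and 78.4, 64.6 and 57.6 in KO libraries (-0.41, adjusted p = 0.0868). In cluster 12 its level was 226.4 and 174.8 CPM in Het against 95.31, 105.4 and 116.5 in KO libraries, and with that cluster left out immune Ccnd2 was at -0.09 (adjusted p = 0.771).

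Ccne1 was the 1 member called over all cells. Its levels were 6.60 and 6.77 CPM in the Het libraries and 9.78, 9.63 and 9.81 in the KO libraries, tight within groups and apart between them. The log2 fold change was 0.54 ± 0.09 (adjusted p = 0.0338). The call ended with sex as a term (0.55, adjusted p = 0.205), without mixed cells (0.0821), and without Het1 (0.251), Het2 (0.203), KO2 (0.0595) or KO3 (0.0876), always with the same direction. Within lineages it was not called, at 0.40 in epithelial, 0.28 in endothelial, 0.13 in mesenchymal and 0.59 in immune cells (edgeR adjusted p = 0.331, 0.608, 0.717 and 0.0725). The makeup of the kept cells also differed. Mesenchymal cells, whose mesothelial-like and alveolar fibroblast-like classes led in Ccne1, were 568 of 4634 and 587 of 4063 cells in Het. In KO libraries they were 797 of 3051, 542 of 3236 and 824 of 3885. Alveolar fibroblast-like cells numbered 54 and 43 in Het against 143, 106 and 131 in KO libraries. The part of this makeup in the all-cell Ccne1 value was not tested.

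Chek1 had a similar size over all cells, 3.38 and 4.24 CPM in Het and 5.90, 5.63 and 5.51 in KO libraries. Its log2 fold change of 0.58 ± 0.14 missed the threshold (adjusted p = 0.0750), and by DESeq2 it was called. Chek1 was positive in each lineage, from 0.26 in mesenchymal to 0.76 in epithelial cells, and called in none. The antagonists Cdc25a and Wee1 were not called over all cells (0.06 and 0.11, adjusted p = 0.589 and 0.472) or in any lineage. Cdc25a had 22.4 and 23.8 CPM in Het libraries and 23.4 to 25.1 in KO libraries, and Wee1 had 10.6 and 12.1 against 11.98 to 12.54.

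Of the 8 classes large enough for a fit (at least 100 cells per library), AT2-like, alveolar macrophage-like and general capillary-like cells held all 5 calls. They had 2, 2 and 1 of 8 members called, against 16.1%, 3.86% and 3.59% of all genes. Monocyte-like (background 7.58%), macrophage-like (1.34%), smooth muscle-like (0.427%) and adventitial fibroblast-like cells (0.0649%) had 0 of 8, and neutrophil-like cells (0.0569%) had 0 of the 2 members that passed the filter, Ccnd2 and Ccnd3. At an unadjusted p under 0.05 these classes held 5, 3, 0, 1 and 0 members. DESeq2 called Ccnd1 in monocyte-like and in macrophage-like cells and 0 members in the other 3. With sex as a term 0 members were called in any class, and without Het1 also 0. The genotype effect was also tested for variation over the 8 classes, a test chosen after seeing the data: 5 of 8 members varied, against 13.6% of genes. They were Cdk6 (adjusted p = 3.18e-05), Ccnd1 (0.00205), Ccnd2 (0.00343), Ccnd3 (0.0321) and Wee1 (0.0417). Over the 4 lineages, 2 of 8 had varied, against 12.2%.

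**Figure D4:**
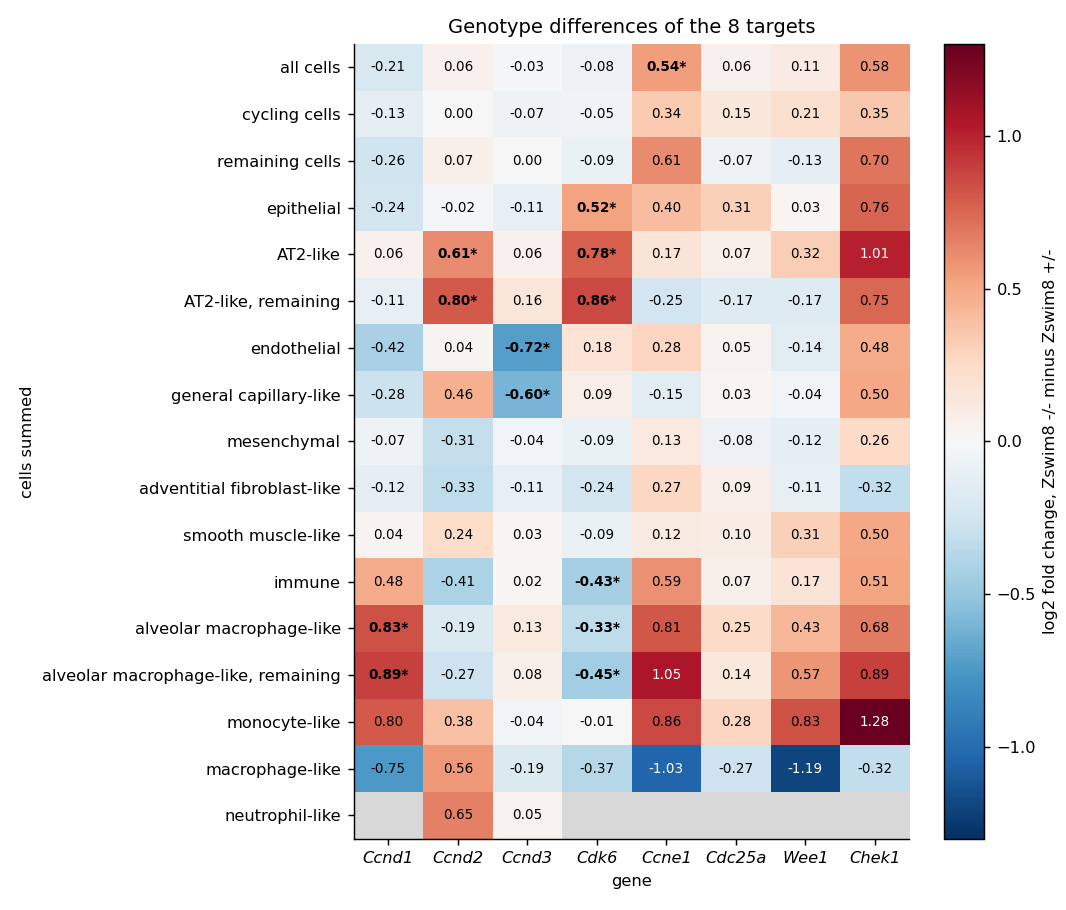
Log2 fold changes of the 8 genes, Zswim8-/- minus Zswim8+/-, in each set of summed cells (rows) by edgeR; red is higher in KO, blue lower, a star marks an adjusted p under 0.05, and grey boxes did not pass the low-count filter. Cdk6 is positive in AT2-like cells (0.78) and negative in alveolar macrophage-like cells (-0.33), and no column has 1 sign throughout.

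AT2-like cells, which carry markers of surfactant-making alveolar type 2 cells, showed Cdk6 and Ccnd2 higher in KO libraries. Cdk6 had 28.0 and 32.9 CPM in Het and 52.4, 55.5 and 48.4 in KO libraries, a log2 fold change of 0.78 ± 0.13 (adjusted p = 0.00450). Ccnd2 had 92.4 and 84.0 CPM in Het and 132, 158 and 114 in KO libraries, 0.61 ± 0.15 (adjusted p = 0.0211). Neither gene's groups overlapped. The KO and Het libraries lay apart for 49.7% of all genes tested in this class and for 4 of the members. Scaling by library size alone moved the median of all genes in this class from 0.02 to 0.26. Under that scaling Cdk6 was at 1.01 and Ccnd2 at 0.85, both still above that median. With sex as a term the values were 0.67 (adjusted p = 0.0766) and 0.37 (0.308). Without Het1 they missed the threshold (0.0874 and 0.117), as they did with coarser clusters and the stricter cell filter. With coarser clusters Cdk6 was at 0.69 (adjusted p = 0.138) and Ccnd2 at -0.00 (0.999). With the stricter filter Cdk6 was at 0.75 (0.176) and Ccnd2 at 0.08 (0.859). For Ccnd2 leaving out Het2 (0.15), KO2 (0.0538) or mixed cells (0.0817) also ended the call.

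Different clusters made up most of the AT2-like cells in the 2 genotypes. Cluster 15, led by Retnla, Lyz1 and S100g, held 217 and 127 cells in the Het libraries and 46, 44 and 87 in the KO libraries. Cluster 29, led by Foxp2, Sprr1a and Tinag, held 67 and 73 cells in Het and 112, 150 and 165 in KO libraries. It carried 8 AT2 and 7 AT1 markers at a median depth 2.56 times that of its libraries. Among its remaining cells, which lacked a UMI of Mki67, of Top2a or of both, Cdk6 stood at 34.4 and 38.1 CPM in Het. It was at 55.4, 62.9 and 56.0 in KO libraries, and Ccnd2 was at 99.3 and 88.4 against 158, 205 and 128. These cells still held Mki67, at 3.95 and 2.325 CPM in Het and 4.55, 14.3 and 7.70 in KO libraries. Their Top2a was at 2.26 and 7.91 against 9.51, 6.64 and 7.935, so dividing cells are not fully removed from them. In cluster 15, Cdk6 was at 15.3 and 21.5 against 23.02, 13.3 and 20.6, so the groups overlapped. Ccnd2 in cluster 15 was at 72.5 and 68.6 against 94.96, 112 and 110.1, higher in each KO library. The Ccnd2 difference was thus seen within both clusters and that of Cdk6 within cluster 29, with no test by cluster.

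**Figure D5:**
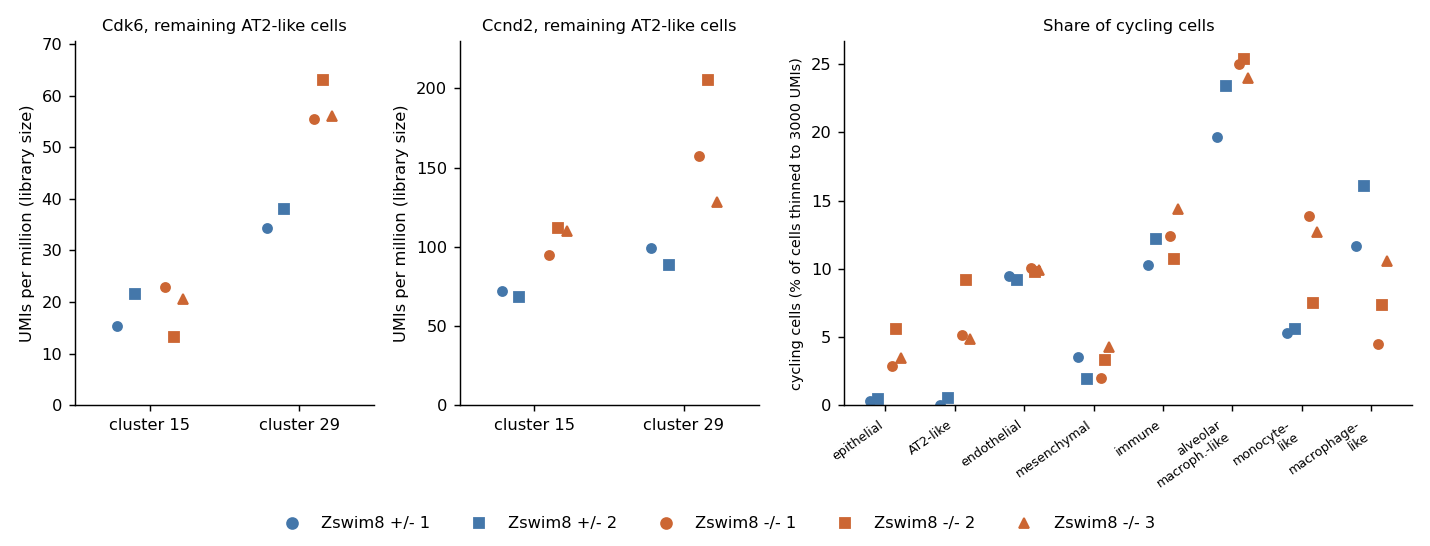
Left and middle, Cdk6 and Ccnd2 in remaining AT2-like cells of clusters 15 and 29, in CPM; right, percent of cells that are cycling after thinning to 3000 UMIs, by lineage and class; 1 point per library, blue Zswim8+/-, orange Zswim8-/-. Cdk6 in cluster 29 is 34.4 and 38.1 in Het and 55.4 to 62.9 in KO libraries, and cycling AT2-like cells are 0% and 0.505% in Het and 4.90% to 9.19% in KO libraries.

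The share of cycling cells moved with these epithelial values. With each cell thinned to 3000 UMIs, cycling cells were 0.333% and 0.446% of epithelial cells in the Het libraries and 2.92%, 5.63% and 3.47% in the KO libraries. For AT2-like cells the shares were 0% and 0.505% against 5.15%, 9.19% and 4.90%, and without thinning 1.41% and 3.50% against 15.8%, 27.3% and 22.6%. The KO libraries were higher in all cases, at an exact two-sided permutation p of 0.1, the smallest that 2 against 3 libraries allow. Ciliated-like cells, which should not divide and are among the deepest, gave 0% to 2.50% thinned and 18.9% to 55.0% unthinned, so unthinned shares of deep cells carry a large background. Over all cells the thinned shares were 7.30% and 8.32% against 7.27%, 8.70% and 9.92%, which overlap (difference 0.818 percentage points, exact permutation p = 0.5). Endothelial shares were 9.5% and 9.18% against 10.1%, 9.76% and 9.89% thinned, and 13.2% and 13.5% against 17.7%, 19% and 21.7% not thinned. The KO libraries lay above the Het ones in both (exact permutation p = 0.1), by 0.581 and 6.11 percentage points, and the thinned difference turned when at least 2 UMIs of both genes were asked for.

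When only the remaining AT2-like cells were summed (a split by cycling state within classes that was chosen after seeing the data), 2 of 8 members were called, against 9.41% of genes. Cdk6 was at 23.9 and 31.6 CPM in Het and 52.0, 52.9 and 46.3 in KO libraries, 0.86 ± 0.16 (adjusted p = 0.00777). Ccnd2 was at 88.9 and 82.8 against 152, 179.6 and 118 CPM, 0.80 ± 0.17 (adjusted p = 0.0164). Each call ended with sex as a term, at 0.74 for Cdk6 (adjusted p = 0.152) and 0.46 for Ccnd2 (0.319), and without Het1 (0.165 and 0.15). The stricter cell filter gave 0.58 (0.484) and 0.43 (0.262). Coarser clusters gave 0.02 for Cdk6 (0.992) and 0.48 for Ccnd2 (0.168). The Ccnd2 call also ended without Het2 (0.109). Of the 41 other cell-cycle genes, 24 were higher and 1 lower in all AT2-like cells, with a median of 0.95, and among the 35 tested in the remaining ones 1 was higher and 1 lower. The genes with the lowest p in all AT2-like cells were the mitotic genes Ccnb2 (3.33), Cdk1 (2.78), Ccnb1 (3.10) and Bub1 (1.99). Over all remaining epithelial cells 1 of 8 members was called (1.68% of genes): Cdk6, at 0.55 (adjusted p = 0.0459). That call was lost under 11 of 19 alternatives, among them sex as a term (0.51, adjusted p = 0.16), the stricter cell filter (0.42, 0.392), AT1-like cells left out (0.47, 0.0554) and coarser clusters, where it turned to -0.15 (0.834).

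General capillary-like cells, the largest class within the endothelial sums, also had lower Ccnd3, at 119.6 and 110.2 CPM in Het and 77.4, 74.6 and 75.1 in KO libraries. The log2 fold change was -0.60 ± 0.10 (adjusted p = 0.00704). It missed the threshold with sex as a term (-0.62, adjusted p = 0.0634), without Het1 (0.156), without Het2 (0.0742) and with finer clusters (0.0541). Among the 14 classes compared above, Ccnd1 was highest in these cells. It had 538 and 581 CPM in Het and 468, 485 and 433 in KO libraries (-0.28, edgeR adjusted p = 0.122). Ccnd2 had 66.4 and 62.9 against 94.2, 79.6 and 93.6 (0.46, adjusted p = 0.0664). So in the same cells the 3 D-type cyclins differed in sign, and Ccnd3 alone was called. In the remaining general capillary-like cells 1 of the 6 members tested was called (2.61% of genes): Ccnd3, at -0.61 (adjusted p = 0.0221), and in remaining endothelial cells 1 of 7 (5.47%): Ccnd3, at -0.70 (0.00466). The first of these calls ended under 7 of 18 alternatives, sex as a term among them (-0.50, adjusted p = 0.295). The second ended with sex as a term (-0.70, 0.121), without Het2, and without the aerocyte-like and lymphatic-like cells (-0.53, 0.0669). Of the 41 other cell-cycle genes in endothelial cells, Cdkn1a, an inhibitor of cyclin-dependent kinases, was lower (-1.21), and Cdk4 (0.65) and the inhibitor Cdkn1c (0.85) were higher.

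Alveolar macrophage-like cells had Cdk6 lower and Ccnd1 higher in KO libraries. Cdk6 stood at 122 and 121 CPM in Het and 93.3, 104 and 93.3 in KO libraries, -0.33 ± 0.07 (adjusted p = 0.0237). Ccnd1, which is low here, had 9.73 and 7.29 CPM in Het and 14.2, 17.9 and 13.4 in KO libraries, 0.83 ± 0.17 (adjusted p = 0.0236). Both pairs of groups lay apart, which held for 35.8% of all genes tested in this class and 5 of the 8 members. With sex as a term Cdk6 was at -0.38 (adjusted p = 0.0587) and Ccnd1 at 0.66 (0.162). The adjusted p values were, without Het1, 0.266 and 0.0893, without Het2, 0.196 and 0.244, and for Ccnd1 without KO2 0.112. In the same class Ccne1 (0.81), Chek1 (0.68), Wee1 (0.43) and Cdc25a (0.25) were positive at adjusted p of 0.0782, 0.0777, 0.154 and 0.0957. Among the other cell-cycle genes 8 of 40 were higher and 1 lower, led by Mcm6 (0.52), Ccne2 (0.70), Mcm7 (0.45) and Mcm5 (0.42), which act at the start of DNA replication.

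Split by cycling state, the remaining alveolar macrophage-like cells had 2 of 8 members called, against 3.63% of genes: Cdk6 at 132 and 139 CPM in Het and 94.2, 106 and 97.7 in KO libraries (-0.45, adjusted p = 0.00583), and Ccnd1 at 9.77 and 8.03 against 15.9, 19.0 and 15.01 (0.89, adjusted p = 0.0178). Without Het2 the Cdk6 call ended (0.101). The Ccnd1 call ended by DESeq2 (0.0840), with sex as a term (0.75, adjusted p = 0.182), without Het2, without KO2 and when cells with either cycling gene were set apart. The cycling ones had 0 of 8 called (1.21% of genes; 4 members at an unadjusted p under 0.05, 0 by DESeq2), with Cdk6 at -0.13 and Ccnd1 at 0.79. Thinned shares of cycling cells were 19.7% and 23.4% in Het and 25.0%, 25.4% and 24.0% in KO libraries for this class.

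Monocyte-like and macrophage-like cells had no member called but differed in sign. In monocyte-like cells Chek1 had 1.49 and 2.19 CPM in Het and 6.19, 4.40 and 3.34 in KO libraries (1.28, adjusted p = 0.0524), Ccnd1 was at 0.80 (0.0689), and 6 of 8 members were positive. In macrophage-like cells 7 of 8 were negative: Ccnd1 had 247 and 223 CPM in Het and 182, 109 and 129.7 in KO libraries (-0.75, adjusted p = 0.0564), and Wee1 was at -1.19 (0.158). Thinned cycling shares were 5.28% and 5.56% in Het and 13.9%, 7.48% and 12.7% in KO monocyte-like cells, and 11.7% and 16.1% against 4.48%, 7.39% and 10.6% in macrophage-like cells (exact permutation p = 0.2 for each). Of the 40 other cell-cycle genes tested in monocyte-like cells 15 were higher and 0 lower, led by Mcm2 (0.99), Rrm2 (1.23), Mcm5 (0.87) and Mcm6 (1.13). In macrophage-like cells 0 of 39 were called by edgeR, with 33 negative and 21 at an unadjusted p under 0.05.

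Remaining immune cells had 2 of 8 members called, against 9.71% of genes. Cdk6 was at -0.49 (adjusted p = 0.00472), a call that ended with sex as a term (-0.51, 0.0507) and without Het2, and at -0.32 without cluster 12 (0.0439). Ccne1 had 1.75 and 2.15 CPM in Het and 3.00, 4.00 and 3.31 in KO libraries, 0.83 ± 0.22 (adjusted p = 0.0489), and lost its call under 11 of 19 alternatives, among them sex as a term (0.77, adjusted p = 0.249), DESeq2 (0.121) and cluster 12 left out (0.72, 0.0880). Cycling immune cells had 0 of 8 (1.52% of genes; 2 members at an unadjusted p under 0.05, 0 by DESeq2), with Cdk6 at -0.31 (adjusted p = 0.104). Remaining mesenchymal cells also had 0 of 8 (0.0817%; 0 at an unadjusted p under 0.05, 0 by DESeq2). In the cycling monocyte-like (0.282%) and the remaining monocyte-like (2.60%, 6 tested), adventitial fibroblast-like (0.0384%), neutrophil-like (0.0570%, 2 tested) and smooth muscle-like cells (0.691%), 0 members were called. Unadjusted p was under 0.05 for 1, 2, 1, 0 and 2 of them, and DESeq2 called 1, in the remaining monocyte-like cells.

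Over all cycling cells 0 of 8 members were called between genotypes, against 0.564% of genes, with 3 at an unadjusted p under 0.05 (Ccne1 0.34, Wee1 0.21, Chek1 0.35) and 0 by DESeq2. Over all remaining cells the count was also 0 of 8, against 5.12%, with 3 at an unadjusted p under 0.05 (Ccne1 0.61, Chek1 0.70, Ccnd1 -0.26) and 1 by DESeq2. Whether the genotype effect differed by cycling state was tested in 1 fit with the library as a block. It was called for 0 of 8 members over all cells (0.00597% of genes; 0 members at an unadjusted p under 0.05) and 0 of 8 in immune cells (0.491%; 2 at an unadjusted p under 0.05, Ccnd2 and Ccnd3). DESeq2 was not run for this term. The largest term over all cells was -0.39 ± 0.24 for Chek1, and the standard errors of the 8 members ran from 0.07 to 0.25.

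The other cell-cycle genes gave the same comparison over lineages. Over all cells 4 of 41 were higher and 0 lower: Mcm6 (0.46), Cdk4 (0.45), Mcm4 (0.43) and Mcm7 (0.35). In epithelial cells 15 were higher and 1 lower, led by Aurkb (2.00), Bub1 (1.62), Ccna2 (1.79) and Mcm6 (1.00), and in immune cells 7 of 40 were higher and 0 lower. Mesenchymal and cycling cells had 0 called by edgeR, with 3 and 5 at an unadjusted p under 0.05. Of the 8 other published targets, 0 were called over all cells by edgeR (3 at an unadjusted p under 0.05). In AT2-like cells 3 were higher: Igf1r (0.95), Smad7 (0.45) and Fgfr1 (0.67). Lrrc58, a trigger transcript of the family, was lower over all cells (-0.27, adjusted p = 0.0497) and in immune cells (-0.41). Plagl1, another trigger transcript, was higher in all remaining cells (0.84), where it stood at 105 to 233 CPM, against 2.13 to 5.32 in remaining immune cells. Mesenchymal cells were 518 of 4076 and 554 of 3493 remaining cells in Het, and 763 of 2692, 505 of 2705 and 750 of 3191 in KO libraries. In remaining mesenchymal cells 0 of the 2 trigger transcripts were called by edgeR (2 at an unadjusted p under 0.05). The part of this makeup in the Plagl1 value was not tested. In AT2-like cells Lrrc58 was at -0.46 and Plagl1 at 0.54, both called. The primary transcripts Dleu2 and Smc4, which host copies of miR-16, were higher in AT2-like cells (0.70 and 0.67), and Dleu2 in epithelial (0.60) and remaining AT2-like cells (0.76). Smc4 was also higher in monocyte-like (0.51) and lower in macrophage-like cells (-0.94). Smc4 was itself higher in cycling than in remaining cells, by 2.30 on the log2 scale, while Dleu2 was at 0.03 (edgeR adjusted p = 2.55e-08 and 0.538). The part of the cycling shares in the Smc4 values of these classes was not tested. Neither host transcript was called between genotypes over all cells by edgeR (0 at an unadjusted p under 0.05). DESeq2 counts were not taken for these lists, and values with sex as a term are not given for them.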

How the data were processed

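Dissociated lungs of 5 mouse embryos were profiled, 1 library each. The values are UMI counts per gene and barcode deposited by the authors, unnormalized. Per the submitters' processing notes, Cell Ranger 4.0.0 and the mm10 build were used. Which introns or strands were counted is not given in the sources used here.

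A kept barcode had 500 genes or more and a mitochondrial share of no more than 15%, and the highest-scoring simulated-doublet neighbours were removed (78 to 186 per library, 0.8% per 1000 barcodes). Cells were clustered in scanpy 1.11.5 (2000 variable genes, 1311 cycling-correlated genes left out, 30 components, Leiden resolution 1). A cluster was given a class from at least 3 markers; clusters of low depth (9.4% to 16.0% of cells) stayed unnamed.

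UMIs were summed per library and cell set (at least 100 cells per library for classes and for remaining cells of a class, 50 for cycling cells) and tested with edgeR 4.0.16 in R 4.3.3 (TMM, filterByExpr, quasi-likelihood, two-sided, Benjamini-Hochberg over all genes tested). The standard error is the log2 fold change divided by the square root of F. DESeq2 1.42.0 was an alternative. The p-values cover the spread between 2 and 3 embryos. On simulated data based on the all-cell sums, 63.9% of the 194 changed genes tested were recovered, with 16 false calls among 17382 genes. For cycling cells 52.8% of 197 were recovered with 13 false calls, and for immune cells 76.6% of 192 with 21. False calls are thus to be set against the recovered genes, not against all genes. Shares of cycling cells were compared by an exact permutation test after thinning cells to 3000 UMIs.

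The members and lists were chosen with earlier results of these data known. Named in every fit were the 8 members. From the list of 41 other cell-cycle genes and that of 8 other published targets, at most 4 called genes per fit, those of lowest p, were named, and host and trigger transcripts by their calls. Alternatives were other tools, scalings, filters, cell sets, covariates and the removal of each library. Leaving out cell types that the genotypes held in unequal shares was added after seeing the data.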

Additional observations from a re-analysis of the deposited data

Results flagged for a closer look

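The genotype effect on Cdk6 differed between the 4 lineages by a joint interaction test in edgeR (adjusted p = 0.000157), at 0.52 in epithelial and -0.43 in immune cells on the log2 scale. That on Ccnd3 differed as well (adjusted p = 0.00634), at -0.72 in endothelial cells and between -0.11 and 0.02 in the other 3 lineages.

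Over the 8 fitted classes, a test chosen after seeing the data, 5 members differed in their genotype effect. Cdk6 (adjusted p = 3.18e-05) was at 0.78 in AT2-like and -0.37 in macrophage-like cells. Ccnd1 (0.00205) was at 0.83 in alveolar macrophage-like and -0.75 in macrophage-like cells. Ccnd2 (0.00343) was at 0.61 in AT2-like and -0.33 in adventitial fibroblast-like cells. Ccnd3 (0.0321) was at -0.60 in general capillary-like and 0.13 in alveolar macrophage-like cells. Wee1 (0.0417) was at 0.83 in monocyte-like and -1.19 in macrophage-like cells.

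The thinned share of cycling cells was 6.16 percentage points higher in KO than in Het AT2-like cells, while in macrophage-like cells the difference was -6.42 points. Every KO library lay above the Het libraries in the first class and below them in the second. The difference between these classes was not tested.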

How the results depend on the processing

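The counts of members called were small and moved easily. Over all cells the count of 1 became 2 with DESeq2 and 0 with sex as a term or without mixed cells. In epithelial cells the count of 1 became 0 with sex as a term, the stricter cell filter, mixed cells left out or Leiden resolution 0.5, and 2 without AT1-like cells (Ccnd1 joined Cdk6, at -0.38, adjusted p = 0.0460). In endothelial cells it became 2 with DESeq2, no low-count filter, mixed cells left out or resolution 0.5, and in immune cells 2 with DESeq2, no low-count filter or the stricter cell filter. In remaining cells the count of 0 became 1 with DESeq2 or without mixed cells. The 5 calls over classes became 9 with library size alone, 14 with no low-count filter, 10 with doublets kept and 0 with sex as a term. The cause was not tested.

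Leaving out 1 library at a time gave 0 to 1 calls over all cells, 0 to 1 in epithelial, 0 to 2 in endothelial (2 without KO2), 1 to 3 in immune (3 without KO1) and 0 to 1 in remaining cells (1 without KO1). It gave 1 to 3 for genotype by lineage, where Cdk6 alone was left without Het1, and 0 to 9 over classes (0 without Het1, 1 without Het2, 3 without KO2, 9 without KO1 or KO3).

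The replicate block gave 0 calls over all cells, 3 in immune cells and 14 over classes. The labels do not say that replicate numbers pair embryos, and the deviations of same-numbered libraries correlated at -0.11 and -0.10 over all cells and at 0.10 and 0.10 in immune cells, so the numbers were not taken as pairs.

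Some single values turned. With Leiden resolution 0.5, Cdk6 in remaining epithelial cells was at -0.15 and Ccnd2 in AT2-like cells at -0.00. Ccnd1 in cycling against remaining cells was at -0.15 without mixed cells and -0.14 after thinning, and Ccnd3 at 0.01 without mixed cells. The share of cycling cells, KO minus Het, was 2.31 points not thinned, beside 0.818, and 0.172 to 1.5 without 1 library. When at least 2 UMIs of both genes were asked for, the share of cycling cells, KO minus Het, endothelial cells, was -0.779 points. Most main results are counts of members called. Under the alternatives, 127 main values stayed equal, within a factor of 1.5 or within the spread. Of the others, 20 were lower counts, 21 were higher counts and 1 value moved. An unchanged count can hold other members. Ccne1, Wee1 and Chek1 rest on few UMIs, and with 2 Het libraries of the same sex the precision of every genotype value is limited by the number of embryos.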
